A study of Mus musculus with 2 samples.

Results

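Barcodes with much mitochondrial RNA were described in single-cell RNA libraries of sorted mouse brain microglia. A barcode stands for 1 droplet of the capture and usually for 1 cell. The barcodes were chosen by 2 limits, at least 1000 unique molecular identifiers (UMIs, 1 per captured RNA molecule) and more than 10% of UMIs from genes whose symbol starts with mt-. They number 190 of the 18012 deposited barcodes, 83 of 8600 in the awake library and 107 of 9412 in the anesthesia library. They are called high barcodes here, and the 7817 awake and 8308 anesthesia barcodes with at least 1000 UMIs and at most 5% mitochondrial UMIs are called low barcodes.

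The mice were adult C57BL/6J males. The awake group was 3 mice given saline, and the anesthesia group was 3 mice given 100 mg/kg sodium pentobarbital, a barbiturate. Whole brains were enzymatically dissociated, and microglia were sorted by flow cytometry on CD11b with low CD45 before 10x Genomics 3' capture. Each group has 1 library, and pooling of its mice is not given in the sources used here. No difference below therefore has a replicate check or a test, and every interval is a 95% interval that covers counting error only.

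The mitochondrial genome encodes a small set of respiratory chain proteins with the 2 ribosomal RNAs and the transfer RNAs needed to make them, while the other subunits of the respiratory chain come from nuclear genes and are imported. In single-cell data a large mitochondrial share is widely used as a sign of a damaged cell, because mitochondria stay inside a leaking cell while cytosolic RNA can escape. Cell types also differ in how many mitochondria they hold, and neurons, astrocytes and the endothelium of brain vessels are rich in them.

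Mitochondrial genes number 37 in the gene list, and 28 of them had a UMI in the awake and 32 in the anesthesia high barcodes. The high barcodes made up 0.999% (0.796 to 1.24) of the 8311 awake and 1.18% (0.969 to 1.43) of the 9055 anesthesia barcodes with at least 1000 UMIs. The mitochondrial share that chose them had a median of 15.5% and a highest value of 74.2% in the awake library, and a median of 14.2% and a highest value of 46.4% in the anesthesia library. More than 50% was reached by 5 awake and 0 anesthesia barcodes. Between the limits of the rule lay 411 awake and 640 anesthesia barcodes, at 5 to 10%. Just outside the limit, at 9 to 10%, lay 29 awake barcodes with a median of 2217 UMIs and 41 anesthesia barcodes with 3643. Just inside it, at 10 to 11%, lay 15 awake barcodes with 3181 UMIs and 22 anesthesia barcodes with 2214.5. The values run on across the limit, so it does not part separate groups.

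High barcodes were shallow. Their median was 1527 UMIs in awake and 1594 in anesthesia barcodes, against 5952 and 5445.5 in the low barcodes. Without mitochondrial UMIs the medians were 1190 and 1340 against 5869 and 5321. After each barcode was thinned to 500 random non-mitochondrial UMIs, the median number of genes was 350 and 359 in high and 368 and 373 in low barcodes, so at equal depth the number of genes was similar. The libraries shared 14 barcode sequences, and 0 of the high barcodes were among them.

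**Figure D1:**
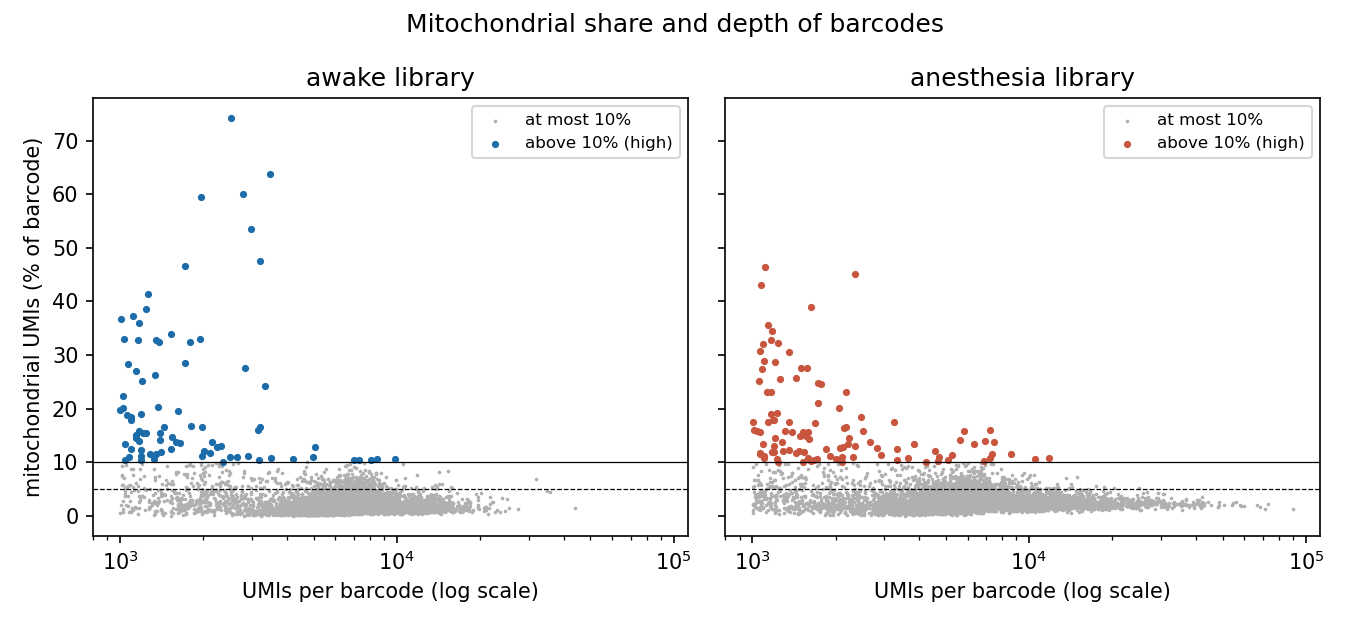
Each point is a barcode with at least 1000 UMIs in the awake (left) or anesthesia (right) library, with its UMIs on a log axis and the mitochondrial percent of its UMIs on the vertical axis. The solid line marks 10% and the dashed line 5%, and the 83 awake and 107 anesthesia high barcodes lie mostly at the shallow end.

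RNA of cells other than microglia was over-represented. Cell class was read from 10 fixed markers for each of 17 classes, counting a class as present where at least 3 of its markers had a UMI after thinning. At least 3 microglia markers were seen in 50 of 83 awake high barcodes, 60.2% (48.9 to 70.8), and in 73 of 107 anesthesia high barcodes, 68.2% (58.5 to 76.9). The low barcodes reached 96.4% and 95.4%. At least 3 markers of brain endothelium, the cell layer that lines vessels and forms the blood-brain barrier, were seen in 21 awake high barcodes, 25.3% (16.4 to 36.0), and in 29 anesthesia high barcodes, 27.1% (19.0 to 36.6). In the low barcodes these shares were 1.14% and 0.722%, and most of those barcodes had fewer than 3 microglia markers. Low barcodes with markers of both microglia and endothelium were 0.230% and 0.265%. Without thinning, at least 3 endothelial markers were seen in 38.6% and 38.3% of high and 7.56% and 5.37% of low barcodes, with or without microglia markers. The endothelial interval of the high barcodes lay above that of the low barcodes in both libraries.

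Other classes were rarer. Astrocyte markers reached 3 in 8 awake and 4 anesthesia high barcodes, against 2 of 7817 and 0 of 8308 low barcodes. Oligodendrocyte markers reached 3 in 1 awake and 3 anesthesia high barcodes, against 1 and 0 low barcodes. Mural cells, platelets and border-associated macrophages were each met by 1 or 2 high barcodes per library, and neurons and choroid plexus by 1 anesthesia barcode each. No high barcode reached 3 markers of neutrophils, monocytes, T or NK cells, B cells, fibroblasts, oligodendrocyte precursors, ependymal cells or erythrocytes, which allows a share of up to 3.61% in the awake library.

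By combination, 41 awake and 55 anesthesia high barcodes had microglia markers only. Markers of microglia together with another class were found in 9 and 18, of another class without microglia in 21 and 22, and of no class in 12 and 12. The group with 2 kinds of marker was 10.8% (5.08 to 19.6) and 16.8% (10.3 to 25.3) of high barcodes but 0.473% and 0.457% of low barcodes. No doublet caller was run, and the part of doublets and of free RNA in these mixed barcodes was not tested. Mixed high barcodes had a median of 1286 and 1334 UMIs, fewer than the 1808 and 2063 of those with microglia markers only. The label of sorted microglia thus describes a smaller share of the high barcodes than of the low barcodes.

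Read the other way, 21 of 150 awake barcodes with 3 endothelial markers were high, 14.0% (8.88 to 20.6), and 29 of 149 in the anesthesia library, 19.5% (13.4 to 26.7). Among barcodes with microglia markers only, 41 of 7849 were high, 0.522% (0.375 to 0.708), and 55 of 8463, 0.650% (0.490 to 0.845). Endothelial barcodes also had a higher median mitochondrial share, 4.44% and 5.72%, against 1.37% and 2.20% in microglia-only barcodes. Of the few astrocyte barcodes, 8 of 11 and 4 of 6 were high.

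Summed over all high barcodes and scaled to counts per 1000000 non-mitochondrial UMIs (CPM), endothelial markers stood at 5191 CPM in awake high barcodes against 884 in low barcodes, a log2 ratio of 2.55 (2.45 to 2.66). Under anesthesia they stood at 7181 against 523, or 3.78 (3.71 to 3.85) on the log2 scale. All 10 endothelial markers had UMIs in the high barcodes of both libraries. Cldn5, the main claudin of the blood-brain barrier's tight junctions, was at 771 CPM against 70.5 in awake and 1177 against 33.9 in anesthesia barcodes. Flt1, a receptor for vascular endothelial growth factor, was at 505 against 37.1 and at 962 against 31.0. Bsg, a surface glycoprotein abundant on brain vessels, was at 2422 against 617 and at 2728 against 363, so low barcodes carried it too.

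Microglia markers were lower, at 15758 against 22361 CPM in the awake library, a log2 ratio of -0.50 (-0.56 to -0.45), and under anesthesia at 15197 against 20102, or -0.40 (-0.45 to -0.36). All 10 were below 0 in both libraries, among them Cx3cr1, the fractalkine receptor, at -0.74 and -0.57. Microglial RNA was thus still the largest of the 17 marker sums in these barcodes.

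Astrocyte markers had a log2 ratio of 3.96 (3.77 to 4.15) in awake and 2.12 (1.85 to 2.39) in anesthesia barcodes, with 85 and 26 UMIs of Slc1a2, the main glutamate transporter of astrocytes. Gfap, the astrocyte filament protein, and Aqp4, the water channel of their endfeet, had 0 UMIs in the anesthesia high barcodes. Neuron markers had ratios of 4.45 (4.15 to 4.74) and 3.59 (3.28 to 3.88) on 105 and 98 UMIs, led by Nrgn, a postsynaptic calmodulin-binding protein. A subset of low barcodes was limited to the 10th to 90th percentile of the depth of high barcodes. This bounds depth but does not match it, since the subset's median was 1991 awake and 4092 anesthesia non-mitochondrial UMIs against 1190 and 1340 in high barcodes. Against this depth-limited subset the awake neuron ratio was 2.99. Mural cell markers had ratios of 4.78 and 4.54 against all low barcodes, and the awake value was 1.80 against the subset.

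Oligodendrocyte markers had ratios of 3.13 (2.94 to 3.32) and 3.57 (3.42 to 3.72), but few barcodes carried them. In the awake library 1 barcode with 60.0% mitochondrial UMIs held 146 of the 232 UMIs, and without the barcode with the most marker UMIs in each class the ratio was 2.08. In the anesthesia library 1 barcode held 105 of 378, and the ratio without it was 3.12. Mbp, the myelin basic protein, shows the same: 104 of its 120 awake and 46 of its 92 anesthesia UMIs in high barcodes lay in 1 barcode. The sum of choroid plexus markers was near that of low barcodes, at 0.15 and 0.29, with 91 of 118 and 238 of 341 UMIs in 1 barcode, and was -1.48 and -1.33 without it. Neutrophil markers were lower, at -3.50 and -1.63, and at -1.36 and -0.09 against the depth-limited subset.

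**Figure D2:**
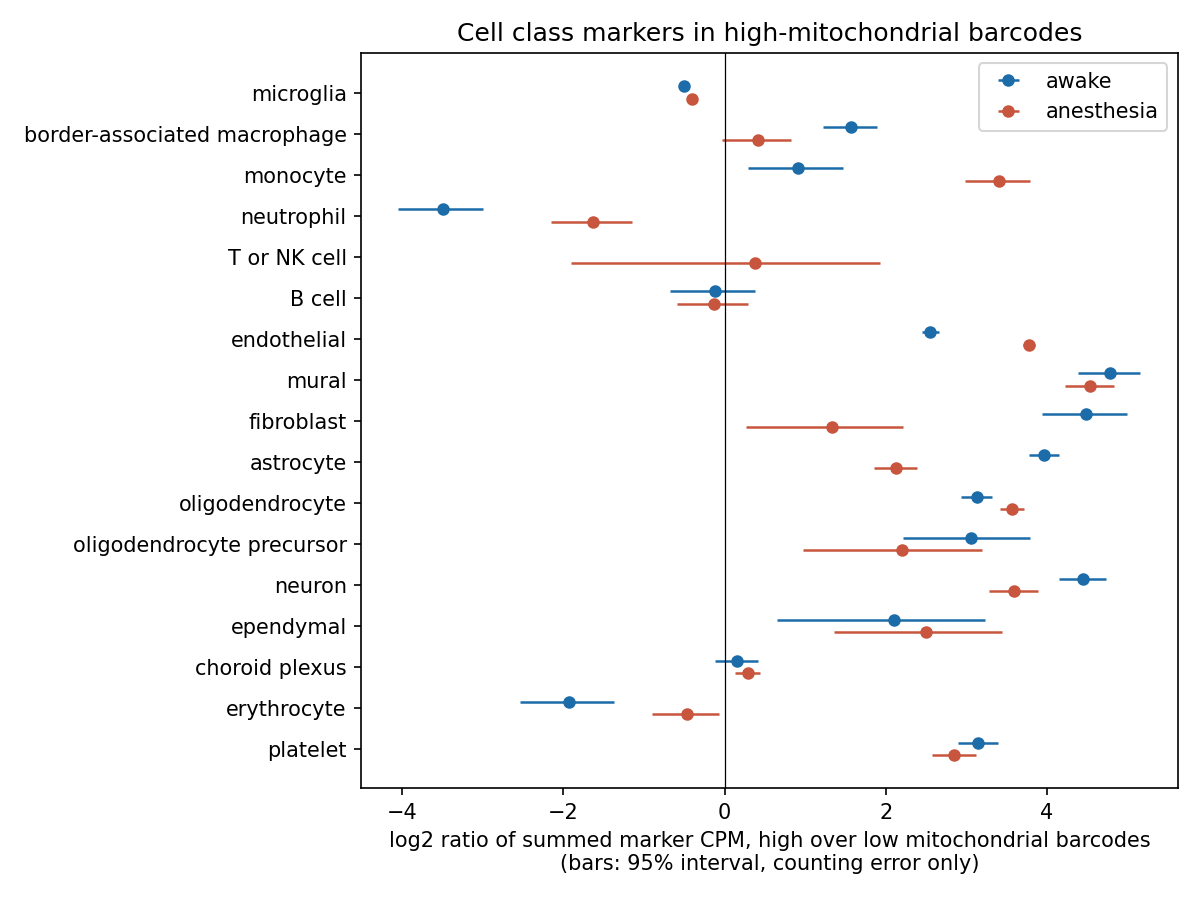
For each of 17 cell classes, points give the log2 ratio of summed marker CPM in high over low barcodes of the awake and anesthesia libraries, with 95% intervals for counting error. T or NK cell markers had 0 UMIs in the awake high barcodes and have no awake point. Endothelial, mural, astrocyte, oligodendrocyte and neuron markers lie right of 0 in both libraries and microglia markers left of it.

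Marker RNA of oligodendrocytes, astrocytes and neurons was highest where the mitochondrial share was highest. Barcodes above 20% were also the shallowest, and the part of depth was not tested. Their median was 906 awake and 886 anesthesia non-mitochondrial UMIs, against 1762.5 and 1848 at 10 to 15%. Oligodendrocyte markers stood at 6196 CPM in the 29 awake barcodes above 20% and at 313 CPM in the 38 at 10 to 15%. Under anesthesia the values were 7381 CPM in 26 barcodes and 709 in 59. In each library 1 barcode held most of these UMIs above 20%, 146 of 187 awake and 105 of 189 anesthesia, and without it the levels were 1410 and 3456 CPM. Astrocyte markers stood at 4506 against 689 CPM in awake and at 1484 against 327 in anesthesia barcodes. For neuron markers the values were 1491 against 480 CPM and 1289 against 333. Endothelial markers did not follow this order. They were lowest above 20%, with 1789 and 3710 CPM, and stood at 10393 and 8170 CPM at 15 to 20% and at 5145 and 7498 CPM at 10 to 15%. Without the barcode with the most endothelial UMIs in each group, the anesthesia value was 5288 CPM at 15 to 20% and 5731 at 10 to 15%, so the order of these groups turned.

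Single genes were compared by summed CPM, high over low, for genes with a mean of at least 100 CPM over both classes, and a gene is called where it differs at least 2-fold. In the awake library 162 of 1592 genes, 10.2%, were called higher and 173, 10.9%, lower. In the anesthesia library 74 of 1679, 4.41%, were called higher and 54, 3.22%, lower. Of 1367 genes that pass in both libraries, 41 were called higher in both, 22 lower in both and 0 in opposite directions. The higher calls were 48.4% of the awake and 57.8% of the anesthesia calls. Median-of-ratios scaling, which shifts all genes by 0.14 and 0.15 on the log2 scale, gave 64.8% and 79.2%. A total without ribosomal protein genes, Malat1, Gm42418 and AY036118 gave 59.9% and 72.9%, and equal weight for each barcode gave 47.9% and 42.6%. The median gene was at -0.15 in both libraries, and values below can be read against it.

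Of the 15 genes most strongly higher in both libraries, Cldn5, Flt1, Slco1a4 and Ly6c1 stand on the endothelial list and Gng11 on the platelet list. Slco1a4, an organic anion transporter of the blood-brain barrier, Cldn5, Flt1, Ly6c1, Ptprb, a receptor phosphatase of endothelium, Epas1, a hypoxia-inducible transcription factor, Pltp, Spock2, Sptbn1, Ctla2a and Gng11 were between 3.35 and 5.15 in awake and between 4.30 and 5.56 in anesthesia barcodes. Ctla2a was at 1057 CPM against 29.7 in the awake library, with UMIs in 30 of 83 high barcodes. In the anesthesia library it was at 505 against 20, with UMIs in 24 of 107. Apod, a lipid-binding apolipoprotein, had the largest anesthesia ratio of the 15, 7.07 (6.53 to 7.59), and an awake ratio of 6.10 (5.52 to 6.64). It came from 12 awake and 11 anesthesia barcodes, with 14 of 34 and 22 of 48 UMIs in 1 of them. Ptn, Sparcl1 and Mbp complete the list. In the anesthesia library 1 barcode held 49 of 154 Pltp UMIs. The barcode with the most UMIs there held 26 of 80 for Ptprb and 39 of 115 for Ptn.

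The 15 genes most strongly lower in both libraries included 3 chemokines. Ccl4, a chemokine, was at 628 CPM against 2134 in awake barcodes, -1.77 (-2.08 to -1.47) as a log2 ratio, and at 1652 against 5065 under anesthesia, -1.62 (-1.77 to -1.47). The chemokine Ccl3 was at -1.63 and -1.31 and Ccl2 at -1.80 and -1.32. Atf3, a stress-induced transcription factor, was at -1.49 and -1.07, and Cd14, the lipopolysaccharide co-receptor, at -1.42 and -1.16. Sall1, a transcription factor of microglial identity, was at -1.13 and -1.26 on 12 and 17 UMIs. Marcksl1, Erf, Sertad1, Rab3il1, Mob3c, Arrb2, Tob2 and Snhg12 were between -2.28 and -1.06.

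**Figure D3:**
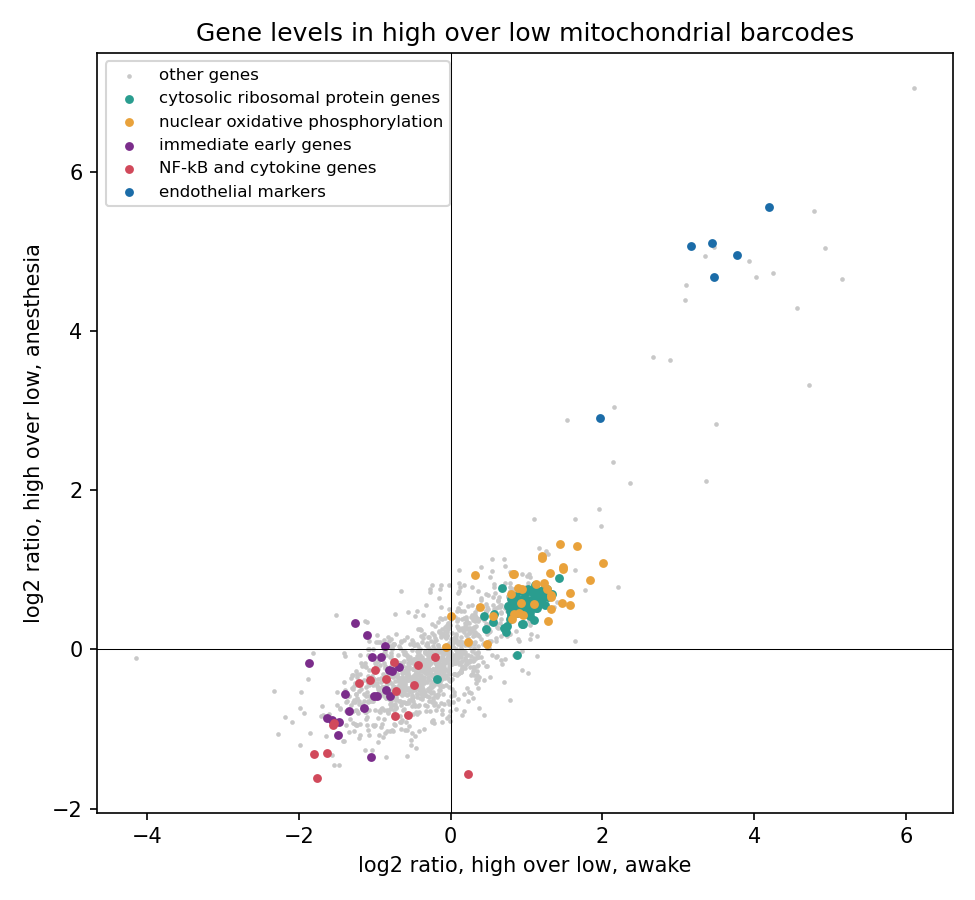
Each point is a gene with a mean of at least 100 CPM in both libraries (n = 1367), with its log2 ratio of high over low barcodes in the awake library on the horizontal and in the anesthesia library on the vertical axis. Endothelial markers lie at the upper right, ribosomal protein and nuclear oxidative phosphorylation genes mostly above 0 in both, and immediate early and cytokine genes mostly below.

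Nuclear genes of oxidative phosphorylation, whose proteins join the mitochondrially encoded subunits, were higher. Of 56 listed genes 41 passed the filter in the awake library, with a median log2 ratio of 1.10, and 21 were called higher and 0 lower. Under anesthesia 40 passed, with a median of 0.70, and 9 were called higher and 0 lower. Atp5k, a subunit of ATP synthase, was at 232 CPM against 57.9 and at 180 against 84.8. Uqcr11, of complex III, was at 1.83 (1.41 to 2.22) and 0.87 (0.45 to 1.27), and Ndufa13, of complex I, at 1.58 and 0.56. None of the 20 listed genes for maintenance and expression of mitochondrial DNA, such as Tfam, passed the filter, so they could not be described at this depth. Of the mitophagy list, Pink1, a kinase that marks damaged mitochondria, was at 2.14 (1.61 to 2.62) and 1.12 (0.49 to 1.68). It had 35 awake and 25 anesthesia UMIs in high barcodes and did not pass the filter in the anesthesia library. Sqstm1, an autophagy receptor, was at -0.57 and -0.29.

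Cytosolic ribosomal protein genes were also higher. Their sum took 14.2% of non-mitochondrial UMIs in awake high against 7.08% in low barcodes, and 11.9% against 7.99% in the anesthesia library. Of 89 genes, 79 passed in the awake library with a median of 1.0, and 40 were called higher and 0 lower. Under anesthesia 78 passed with a median of 0.58 and 0 were called in either direction, although 76 were above 0. Rpl38, of the large subunit, was at 1.43 (1.22 to 1.64) and 0.90 (0.76 to 1.04). Barcodes at 10 to 15% mitochondrial UMIs had 13.3% and 11.3%, those at 15 to 20% had 14.0% and 10.6%, and those above 20% had 17.1% and 17.9%.

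Immediate early genes, which encode transcription factors and feedback regulators switched on within minutes of a stimulus, were lower. Of 25 listed genes 21 passed in the awake library, with a median of -1.05, and 13 were called lower and 0 higher. Under anesthesia 22 passed, with a median of -0.57, and 3 were called lower and 0 higher. Jun, an AP-1 subunit, was at 1569 CPM against 4839 in the awake library, a log2 ratio of -1.62, and at 1840 against 3336 in the anesthesia library, one of -0.86. Btg2, an antiproliferative gene, was at -1.56 and -0.89. In single barcodes the list took a median of 0.436% of non-mitochondrial UMIs in awake high and 3.71% in awake low barcodes. The anesthesia medians were 0.809% and 2.77%. The ranges overlap, with highest values of 5.63% and 4.59% in high barcodes.

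NF-kB and cytokine genes gave the same picture, with a median of -0.86 over 17 genes and 8 called lower in the awake library, and -0.53 over 19 and 5 called lower in the anesthesia library, with 0 called higher in each. In the awake library 1 of these genes was above 0, Cxcl10, an interferon-induced chemokine, at 0.23 (-0.53 to 0.89) on 18 UMIs in 5 barcodes. In the anesthesia library 0 were above 0, and Cxcl10 was at -1.56 (-2.40 to -0.84) on 15 UMIs, 9 of them in 1 barcode. Of the integrated stress response genes Atf4, its main transcription factor, was at -1.29 and -0.92 and Ddit3, the factor CHOP, at -0.96 and -1.16. In the heat shock list Dnajb1 was at -2.19 and -0.85 and Dnaja1 at -1.34 and -1.04, both co-chaperones, while the small heat shock protein Hspb1 was at 2.15 and 3.05. Cdkn1a, the p53 target p21, was at -1.82 (-2.58 to -1.16) in awake and -0.05 (-0.36 to 0.25) in anesthesia barcodes. The medians of the heat shock list were -0.62 and -0.37, of the integrated stress response list -0.93 and -0.64, and of the p53 target list -0.76 and -0.39. The list of mitochondrial stress and mitophagy had medians of 0.85 over 5 and 0.022 over 4 genes, the latter below 0 under 1 of 10 alternatives. The oxidative stress list had medians of -0.045 and -0.080 over 8 genes each, above 0 under 7 and 2 of 10 alternatives, so it has no settled direction.

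Malat1, a long non-coding RNA kept in the nucleus, differed in size between libraries. It took 1.27% of non-mitochondrial UMIs in awake high against 2.77% in low barcodes, a log2 ratio of -1.13 (-1.20 to -1.07), and 3.03% against 3.51% in the anesthesia library, a ratio of -0.21 (-0.25 to -0.18). The median awake high barcode had 0.270% and the median anesthesia high barcode 2.35%, and 11 and 7 high barcodes had 0 UMIs of Malat1. Against the depth-limited low barcodes the ratios were -1.44 and -0.42. In the anesthesia library Malat1 was at 3.88% in barcodes of 15 to 20% and at 1.62% above 20%. Neat1, another nuclear RNA, was at -0.49 (-0.84 to -0.16) and 0.05 (-0.18 to 0.28), and Kcnq1ot1 at 0.22 and 0.07. Genes of the splicing and detained-intron list had medians of -0.63 over 15 and -0.40 over 18 genes, with 2 and 0 called lower.

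**Figure D4:**
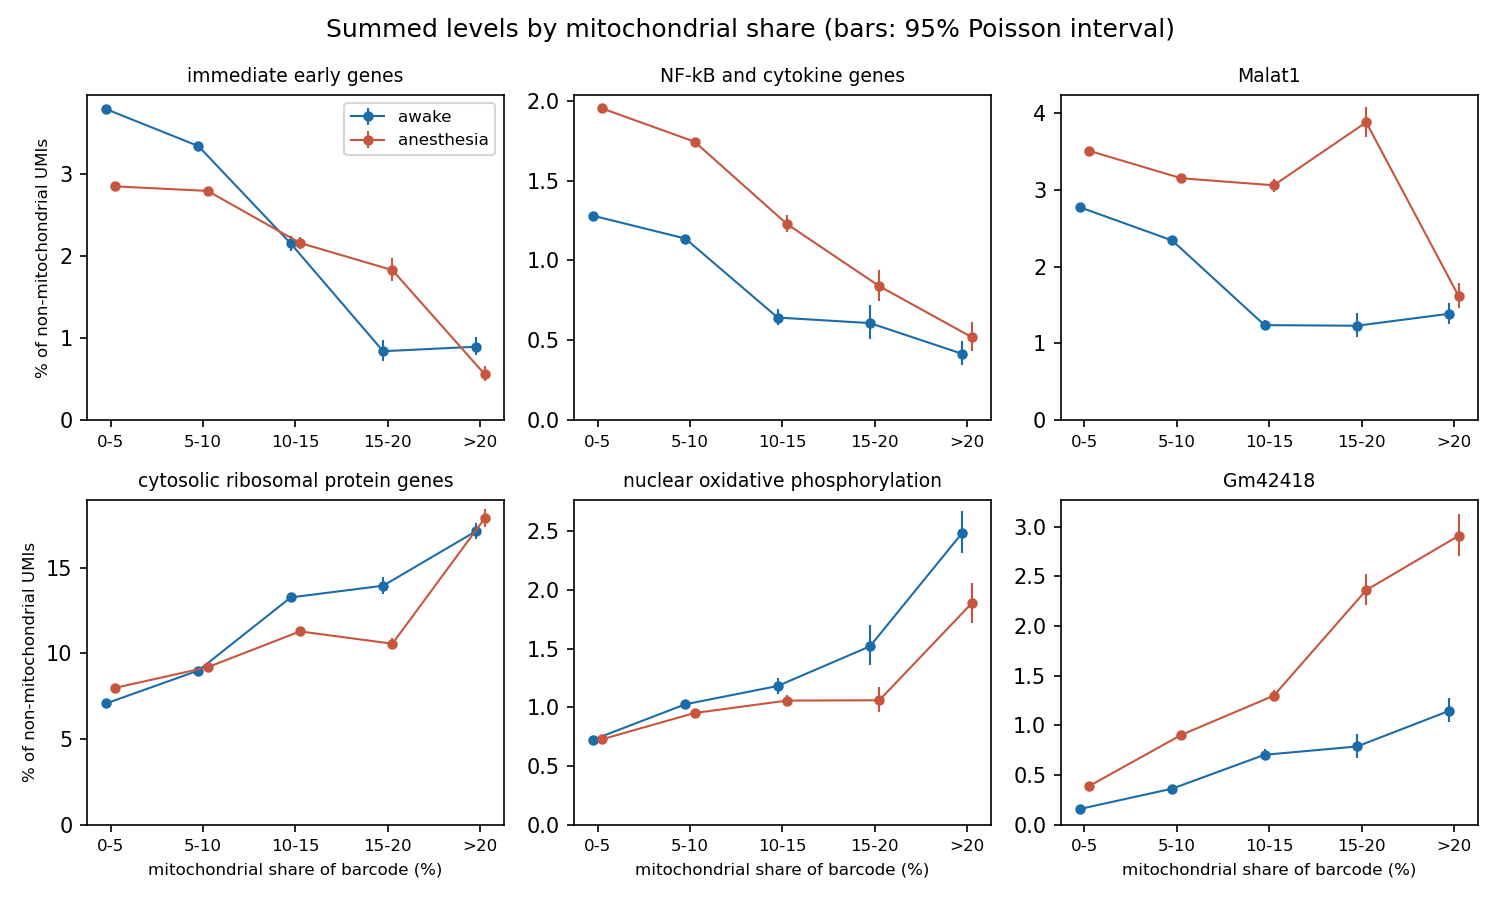
Panels give the percent of non-mitochondrial UMIs taken by 4 gene lists, Malat1 and Gm42418 against the mitochondrial share of the barcodes in the awake and anesthesia libraries, with 95% Poisson intervals and axes from 0. Immediate early genes go from 3.80% and 2.85% at 0 to 5% to 0.895% and 0.558% above 20%, while ribosomal protein genes and Gm42418 are highest above 20%.

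Gm42418, an annotated long non-coding RNA at chr17:39846958-39848788 (GRCm38, plus strand) that lies in a ribosomal RNA sequence, was higher in both libraries. It was at 8063 CPM against 1570 in the awake library, 2.36 (2.28 to 2.44), and at 16532 against 3878 in the anesthesia library, 2.09 (2.05 to 2.14), with UMIs in 82 of 83 and 106 of 107 high barcodes. Against the depth-limited low barcodes the awake ratio was 1.22. Within the mitochondrial UMIs, which chose the barcodes and are given as a description, the ribosomal RNAs took more in high barcodes. mt-Rnr1, the small ribosomal RNA, took 8.35% against 6.22% of mitochondrial UMIs in awake and 11.8% against 7.5% in anesthesia barcodes. mt-Rnr2, the large one, took 29.9% against 28.7% and 39.7% against 32.4%. mt-Nd1, mt-Nd2 and mt-Nd4, subunits of complex I, took less in both libraries.

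The capture reads RNA through runs of A, so the longest run of each mitochondrial ribosomal RNA and of Gm42418 is shown with up to 25 bases on each side, taken from the GENCODE M21 transcripts (GRCm38), with the run in capitals.
mt-Rnr2: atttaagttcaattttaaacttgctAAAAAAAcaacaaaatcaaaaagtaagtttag
mt-Rnr1: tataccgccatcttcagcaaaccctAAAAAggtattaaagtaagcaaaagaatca
Gm42418: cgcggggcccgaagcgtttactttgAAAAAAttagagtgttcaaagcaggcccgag
The runs are 7, 5 and 6 bases long. A run at least as long, searched on the sense strand, is held by 24.9%, 59.5% and 49.8% of transcripts within 20% of the same length. The counts do not show where in a transcript a UMI was captured.

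**Figure D5:**
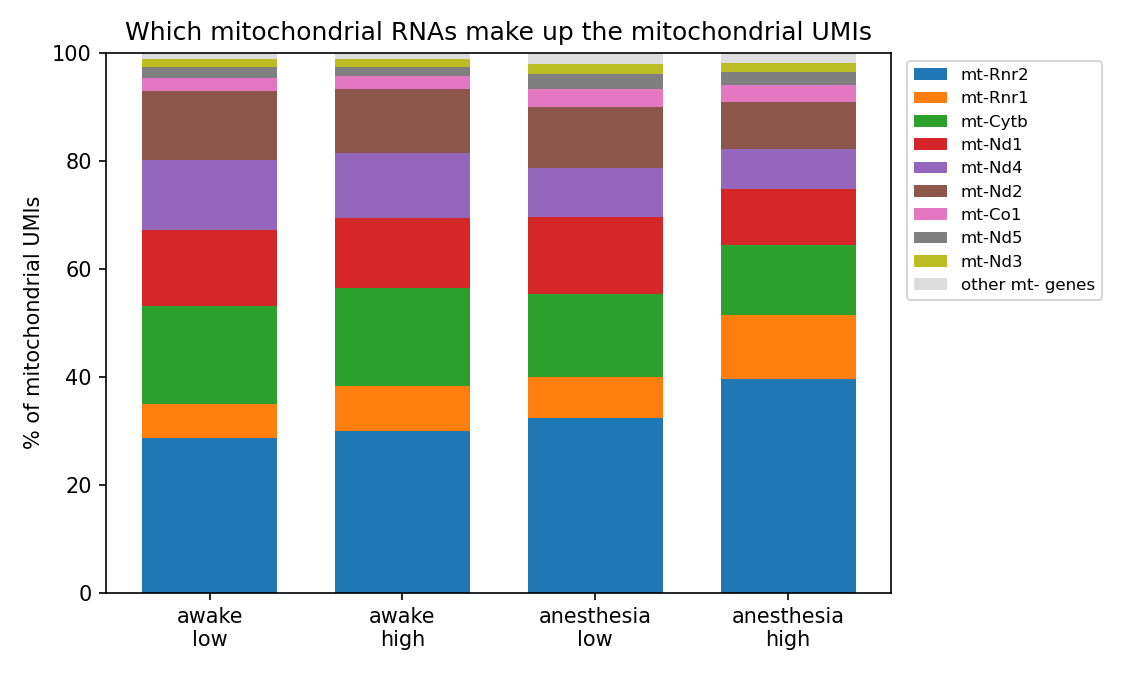
Stacked bars give the percent of mitochondrial UMIs from each mitochondrial gene in the low and high barcodes of the awake and anesthesia libraries. mt-Rnr2 and mt-Rnr1 together take more of the bar in high than in low barcodes of both libraries.

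Within barcodes with microglia markers only, fewer genes were called, and the medians of the main lists kept their sides of 0. In the awake library 43 of 1567 genes, 2.74%, were called higher and 78, 4.98%, lower, and in the anesthesia library 21 of 1660, 1.27%, and 24, 1.45%. Ribosomal protein genes had medians of 0.82 and 0.41, and nuclear oxidative phosphorylation genes of 0.58 and 0.37. Immediate early genes had medians of -0.60 and -0.58, against -1.05 and -0.57 over all high barcodes, with 6 of 22 called lower in awake and 2 of 22 in anesthesia barcodes. Gm42418 was at 1.97 and 1.84, and Malat1 at -0.78 and -0.28.

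Of the genes passing the filter within microglia-only barcodes, Lars2, the mitochondrial leucyl-tRNA synthetase, was among the most strongly higher. It was at 211 CPM against 48.1 in the awake library, 2.13, and at 383 against 101 in the anesthesia library, 1.93. The microRNA gene Mir6236 was at 338 CPM against 52.0 and at 236 against 64.6. App, the amyloid precursor protein, and the respiratory chain genes Cox6a1, Ndufb8 and Ndufb7 were higher by 0.68 to 1.07 on the log2 scale, as were Slc12a2, Rpl5 and Rps4x. The intervals of awake Slc12a2 (-0.005 to 1.37) and anesthesia Ndufb7 (-0.07 to 1.35) reached below 0. Ttr, the transthyretin of the choroid plexus, was at 2.22 and 1.47 there, with 88 of 95 awake and 63 of 79 anesthesia UMIs in 1 barcode. The genes most strongly lower were Erf, Cdkn1a, Ccl4, Marcksl1, Klf6, Dnaja1, Sertad1, Vps37b, Ccl2 and Klf2, between -1.77 and -0.91. Of these, Erf rested on 7 awake and 8 anesthesia UMIs and Vps37b on 6 and 12 in the high barcodes. Klf2, a transcription factor of the immediate early list, was at -0.91 and -1.75 within microglia-only barcodes, while over all high barcodes it was at -1.11 and 0.19. Cdkn1a was at -1.77 and -1.14 (-1.75 to -0.59) within microglia-only barcodes, against -1.82 and -0.05 over all high barcodes.

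Some differences of the full set were not seen there. Apoe, the main lipid carrier of glia, was at 1.63 and 0.996 over all high barcodes and at -0.35 and -0.08 in microglia-only barcodes. Slc2a1, the glucose transporter of the blood-brain barrier, was at 1.54 and 2.88 against -0.25 and -0.068. Tmsb10 was at 1.17 and 1.27 against -0.44 and 0.08. Both endothelial and astrocyte RNA was higher in the full set, and its part in these values was not tested.

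High barcodes with endothelial markers were set against low barcodes with endothelial markers. Immediate early genes were at 0.560% against 3.92% of non-mitochondrial UMIs in the 21 awake barcodes, a log2 ratio of -2.81 (-3.04 to -2.58), and at 1.90% against 3.43% in the 29 anesthesia barcodes, a ratio of -0.85 (-0.95 to -0.76). Malat1 was at -2.23 (-2.44 to -2.04) and -0.46 (-0.54 to -0.39). Ribosomal protein genes were at 0.91 and 0.64 and Gm42418 at 2.35 and 1.95. These values lay on the same sides of 0 as in barcodes with microglia markers only. The sets differ in mixed content, since 3 microglia markers were also found in 9 of the 21 awake and 11 of the 29 anesthesia high barcodes, and in 18 of 89 and 22 of 60 low barcodes, and its part was not tested.

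Between libraries, 122 of 1584 genes, 7.7%, were called higher in anesthesia over awake high barcodes and 73, 4.61%, lower. In the low barcodes the same genes gave 31, 1.96%, in each direction. These genes were filtered on high barcodes, which held 146594 awake and 227675 anesthesia non-mitochondrial UMIs, against 4.97e+07 and 5.59e+07 in low barcodes. Counting error is thus larger in high barcodes, and its part in their larger number of calls was not tested. The genes named below were chosen by their ratio in high barcodes, so their low-barcode values are a description only. With 1 library per group, treatment and library cannot be told apart. Endothelium-expressed Apold1, S1pr1 and Id1 were at 3.42, 2.36 and 2.34 in high and 0.16, 0.71 and -0.03 in low barcodes. Apold1 had 3 awake and 50 anesthesia UMIs. Hes1, Akap12, Cpeb4, Ndrg1, Nabp1 and Gpcpd1 were between 2.24 and 2.44, each on 5 to 7 awake UMIs. Of the anesthesia UMIs, 22 of 58 for Ndrg1 and 10 of 42 for Akap12 lay in the barcode with the most. Microglia-only barcodes held 41 of 50 anesthesia UMIs for Cpeb4, 43 of 48 for Nabp1 and 32 of 59 for Hes1. They held 1 of 42 for Akap12, 2 of 58 for Ndrg1 and 8 of 44 for Gpcpd1. In low barcodes Akap12 was at 1.42, Cpeb4 at 1.17, Hes1 at 0.91, Nabp1 at 0.81, Gpcpd1 at 0.68 and Ndrg1 at 0.18.

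The genes most strongly lower in the anesthesia high barcodes included the astrocyte markers Slc1a2 and Aldoc. Pcsk1n, an inhibitor of prohormone cleavage, was at 52.7 against 280 CPM, a log2 ratio of -2.41 (-3.47 to -1.45), and Cpe, a prohormone carboxypeptidase, at -2.34 (-2.91 to -1.81). Slc1a2 was at -2.34, Aldoc, the brain aldolase, at -2.19 and Ndrg2 at -1.87. Kif5a, a neuronal kinesin, was at -1.98 with 7 of its 11 anesthesia UMIs in 1 barcode. Pf4, Lyz2, Arpc1a and Ndufb5 were between -1.68 and -1.59. Low barcodes were at -0.10 for Pcsk1n, -0.91 for Cpe, -0.35 for Slc1a2, -0.61 for Aldoc and -0.54 for Ndrg2. Pf4 was at -1.36 in low barcodes, near its -1.64 in high barcodes, while Kif5a was at 0.98. Lyz2, Arpc1a and Ndufb5 were between -0.73 and -0.43 in low barcodes.

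Ribosomal protein genes had a median anesthesia over awake ratio of -0.36 in high barcodes and 0.01 in low barcodes over the same 79 genes. Nuclear oxidative phosphorylation genes had -0.41 and -0.02 over 48. NF-kB and cytokine genes had 0.64 and 0.29 over 16, and immediate early genes 0.23 and -0.33 over 21. The immediate early median was -0.93 among barcodes above 20% mitochondrial UMIs and -0.22 in microglia-only barcodes, so its direction changed with the barcodes compared. The ribosomal protein median was near 0 above 20%, at 0.0026, and this was the only 1 of 8 alternatives in which it was not below 0.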

How the data were processed

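UMI counts per gene and barcode were used as deposited. Per the submitters' processing notes, reads were handled with bcl2fastq and Cell Ranger 3.1.0 on GRCm38, while the file headers name version 4.0.0. The authors' cell calling is not given in the sources used here, and the lowest deposited barcode held 501 UMIs. The awake library held 53262885 and the anesthesia library 61139016 UMIs. High barcodes held 146594 and 227675 non-mitochondrial UMIs, so genes near 100 CPM rest on few UMIs.

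Mitochondrial genes were left out of every total. Counts were summed per class, and log2 ratios have exact conditional binomial, CPM exact Poisson and shares exact Clopper-Pearson intervals. A group at 0 gives only a bound, from 3 counts. Depth-limited low barcodes lie within the 10th to 90th percentile of the non-mitochondrial UMIs of the high barcodes. Named genes are the 15 highest and 15 lowest by the smaller absolute ratio of the 2 libraries, 10 and 10 in microglia-only barcodes and between libraries, and up to 4 per list and 3 per marker list, with mt- genes and predicted models left out except Gm42418, a list member. Gfap, Aqp4 and the list members asked for by role were added. Members and lists were chosen with earlier results of these data known. No doublet was removed. The scripts were tested on simulated counts. Python 3.11.15, numpy 2.4.6, scipy 1.17.1 and pandas 2.3.3 were used. Some genes and a sequence that the rules select are not reported here.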

Additional observations from a re-analysis of the deposited data

Results flagged for a closer look

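The summed list of secreted, lysosomal and membrane proteins of microglia lay on opposite sides of 0 in the libraries, with a log2 ratio of high over low barcodes of 0.10 in awake and -0.12 in anesthesia barcodes. The difference was not tested. Its median over 24 genes was below 0 in both, at -0.12 and -0.23, so sum and median differ in sign in the awake library, where Apoe had a log2 ratio of 1.63. In microglia-only barcodes the median was above 0 in both, at 0.14 and 0.027.

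Barcodes under 1000 UMIs were not used above. Of these, 134 of 289 awake, 46.4%, and 129 of 357 anesthesia, 36.1%, had more than 10% mitochondrial UMIs.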

How the results depend on the processing

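No paired analysis was possible because each group has 1 library, and leaving out a replicate could not be run for the same reason. Shares depend on the limits chosen. High barcodes were 5.94% of awake and 8.25% of anesthesia barcodes above a limit of 5%, 0.541% and 0.530% above 15%, 0.349% and 0.287% above 20%, and 0.350% and 0.487% with a floor of 2000 UMIs. At least 3 microglia markers were found in 43.4% and 47.7% after thinning to 300 UMIs and in 77.1% and 85.0% without thinning, at least 2 in 78.3% and 82.2%, and at least 4 in 41.0% and 54.2%. For endothelial markers the shares were 38.6% and 38.3% without thinning and 15.7% and 18.7% at 4 markers, with 36.1% at 2 markers (awake) and 18.7% after thinning to 300 UMIs (anesthesia).

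Counts of genes called higher and lower moved most with the barcodes and the filter. In the awake library they were 364 and 356 for high barcodes above 20%, 67 and 80 against barcodes of 5 to 10%, 43 and 78 in microglia-only barcodes, 281 and 306 with equal weight per barcode, 319 and 350 at 50 CPM, 2856 and 1284 without a filter and 313 and 424 at 1.5-fold, with 113 lower under median-of-ratios scaling. The anesthesia counts were 388 and 382 above 20%, 21 and 24 in microglia-only barcodes, 127 and 171 with equal weight, 187 and 137 at 50 CPM, 3290 and 971 without a filter and 199 and 280 at 1.5-fold. Lower anesthesia calls were 16 against barcodes of 5 to 10%, 25 under median-of-ratios scaling and 32 with the reduced total. Between libraries they were 298 and 323 above 20%, 384 and 226 at 50 CPM, 1333 and 1390 without a filter and 315 and 238 at 1.5-fold, with 135 lower at equal weight.

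With equal weight per barcode the summed marker ratios (awake, then anesthesia) were -0.89 and -0.65 for microglia, 2.85 and 3.67 for endothelium, 4.48 and 2.75 for astrocytes, 3.97 and 3.87 for oligodendrocytes and 4.96 and 4.23 for neurons. Against depth-limited low barcodes they were 2.70 and 3.54 for endothelium, 2.99 and 3.92 for neurons and 3.18 for awake astrocytes. Leaving out the barcode with the most marker UMIs, an alternative chosen after seeing the data, as was leaving it out of each mitochondrial group, gave 2.39 and 3.53 for endothelium and 2.08 and 3.12 for oligodendrocytes. Of the 48 list medians 18 had the opposite sign under at least 1 alternative. Among gene and marker ratios of at least 2-fold the sign changed in 9 cases. In microglia-only barcodes awake Apoe was at -0.35, Tmsb10 at -0.44 and Slc2a1 at -0.25, anesthesia Slc2a1 at -0.068, and between libraries Kif5a at 0.40 and Ndrg2 at 0.14. Above 20% awake Slc2a1 was at -1.39 and Pf4 between libraries at 0.24. Awake erythrocyte markers were at 2.41 against depth-limited low barcodes. The causes were not tested. Depth limits genes near 100 CPM most.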
